A study of Mus musculus with 14 samples.

Results

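Interferon-stimulated and antigen presentation genes were followed in mouse hepatocellular carcinoma cells that lacked ATP-citrate lyase (ACLY), acyl-CoA synthetase short chain family member 2 (ACSS2) or both enzymes. The group held 59 genes chosen by symbol for what they do, and all 59 had a row among the 24972 rows of the expression table. By role they comprised 4 transcription factors, 6 nucleic acid sensors, 38 antiviral effectors and interferon-inducible GTPases, 1 chemokine, and 10 genes of major histocompatibility complex (MHC) class I presentation.

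ACLY makes nuclear and cytosolic acetyl-CoA from citrate, ACSS2 makes it from acetate, and RNA sequencing was run to look for pathways that compensate for their loss. The cells were lines derived from diethylnitrosamine-induced liver tumours of mice with a floxed Acly gene (Acly f/f). Wild-type (WT) cells and ACLY knockout (KO) cells, in which adenoviral Cre had deleted the floxed gene and which were grown from single-cell clones, carried the empty LentiCRISPR v2 vector as bulk populations. ACSS2 KO cells and the double knockout line DKO1 carried the same vector with a guide RNA against the first exon of Acss2, in WT and in ACLY KO cells respectively, and each was a single-cell clone. All lines had thus received the lentiviral vector and puromycin selection, and all were kept for 24 hours in medium with 10% calf serum before RNA extraction. WT and ACLY KO cells had 4 libraries each, and ACSS2 KO and DKO1 cells 3 each. Each genotype was 1 line, so genotype and clone cannot be told apart, and no source ties the replicates to separate cultures, so p-values measure the spread between these libraries only.

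Interferons bind receptors that act through JAK kinases on STAT proteins. Complexes of STAT proteins with IRF9 then bind the interferon-stimulated response element (ISRE) in the promoters of antiviral genes, while STAT dimers bind the gamma-activated site (GAS). Sensors of viral or displaced nucleic acid, such as the RNA helicases RIG-I and MDA5 and the DNA sensor cGAS with its adaptor STING, lead to the production of interferons. MHC class I molecules carry peptides that the immunoproteasome has cut and the TAP transporter has moved into the endoplasmic reticulum.

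The deposited values were normalized read counts whose totals ran from 23565707 to 26946164 per library. Acly was at 5461 to 6435 normalized counts in WT and 5542 to 5762 in ACSS2 KO libraries, against 965 to 1084 in ACLY KO and 931 to 956 in DKO1 libraries. Acss2 was at 127 to 136 in ACSS2 KO against 225 to 252 in WT, and at 455 to 578 in DKO1 against 660 to 787 in ACLY KO, and a transcript level does not check a guide-made lesion. The labels call the cells a liver cancer cell line. The epithelial keratins Krt8 and Krt18 stood at 13938 to 31017 and 11845 to 33761, while of the 12 hepatocyte markers the WT libraries held 5 below 10, with Alb at 27.7 to 36.9. Of 15 leukocyte markers, 11 or 12 were under 10 in all libraries of a genotype and Cd4 was at 0 in all 14, but Csf1r stood at 992 to 1413 and the summed level of the list at 1355 to 1797. WT replicate 2, ACLY KO replicate 4, ACSS2 KO replicate 1 and DKO1 replicate 4 stood apart from their groups by transcript length, with Spearman correlations between length and deviation of -0.522 to -0.669 over 12610 genes, against 0.034 to 0.634 in the other 10 libraries, and ACLY KO replicate 3 stood apart in the interferon-stimulated genes themselves.

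Promoter stretches of members are shown first because the ISRE is the element through which most of these genes are known to respond. RefSeq promoter windows (build GRCm38.p6, 250 bases before to 50 after the start site) were matched for 46 of the 59 members. They were searched on both strands for the letters GAAANNGAAA, which make up the ISRE core. The stretches below belong to the members that rose past the limits in ACLY KO cells and held the letters upstream of the start. Only stretches clear of exons in the basic GENCODE annotation are shown, followed by those of Isg15 and the MHC class I light chain gene B2m. Each is given 5′ to 3′ on the strand of its gene, with the matches, in either orientation, in capitals.
Oas1a: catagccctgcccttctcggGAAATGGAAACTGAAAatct
Oas1g: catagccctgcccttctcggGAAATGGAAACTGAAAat
Oas3: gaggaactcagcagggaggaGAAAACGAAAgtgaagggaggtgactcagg
Rsad2: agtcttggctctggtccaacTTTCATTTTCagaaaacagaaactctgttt
Gbp3: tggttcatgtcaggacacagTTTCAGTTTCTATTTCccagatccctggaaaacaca
Gbp7: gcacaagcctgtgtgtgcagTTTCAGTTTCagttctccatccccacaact
Igtp: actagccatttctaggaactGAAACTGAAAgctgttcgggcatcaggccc
Ifit1: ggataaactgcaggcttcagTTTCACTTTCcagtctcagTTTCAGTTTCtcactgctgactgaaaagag
Isg15: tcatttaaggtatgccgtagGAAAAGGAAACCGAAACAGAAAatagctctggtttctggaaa
B2m: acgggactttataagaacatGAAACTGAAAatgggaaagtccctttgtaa

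On GRCm38.p6 the stretches lie at chr5:120907526-120907565 (minus strand) for Oas1a, chr5:120887614-120887651 (minus) for Oas1g, chr5:120777705-120777754 (minus) for Oas3 and chr12:26456543-26456592 (minus) for Rsad2. Those of Gbp3 and Gbp7 lie at chr3:142559979-142560034 and chr3:142530263-142530312, both on the plus strand, that of Igtp at chr11:58199502-58199551 (plus) and that of Ifit1 at chr19:34640765-34640833 (plus). Those of Isg15 and B2m are chr4:156200855-156200916 (minus) and chr2:122147528-122147577 (plus). The Oas1a and Oas1g stretches carried the same run of 2 overlapping matches directly before the start site, Isg15 carried 3 overlapping matches, and Ifit1 carried 2 separate ones. In the full GENCODE annotation Gbp3 starts at 142560026, so the last bases of its stretch lie inside the annotated gene.

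The letters were in the windows of 23 of the 46 matched members, against 3.44% of all 32851 windows and 3.99% of all 27025 gene symbols. By role they were in 18 of the 30 matched antiviral effectors and GTPases, in 2 of 3 sensors, in 1 of 4 transcription factors and in 1 of 8 MHC class I genes, which was B2m. The windows of Tap1, Psmb8 and Psmb9 held no such letters. The GAS letters TTCNNNGAA were in 10 of the 46 members, among them Psmb8 and Irf1, against 8.3% of all windows. The 15 members past the limits in ACLY KO cells had 13 windows, of which 9 held the ISRE letters, and the other 44 members had 33 windows, of which 14 did. These are descriptions of letters, since the first of these lists was chosen by its values.

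**Figure D1:**
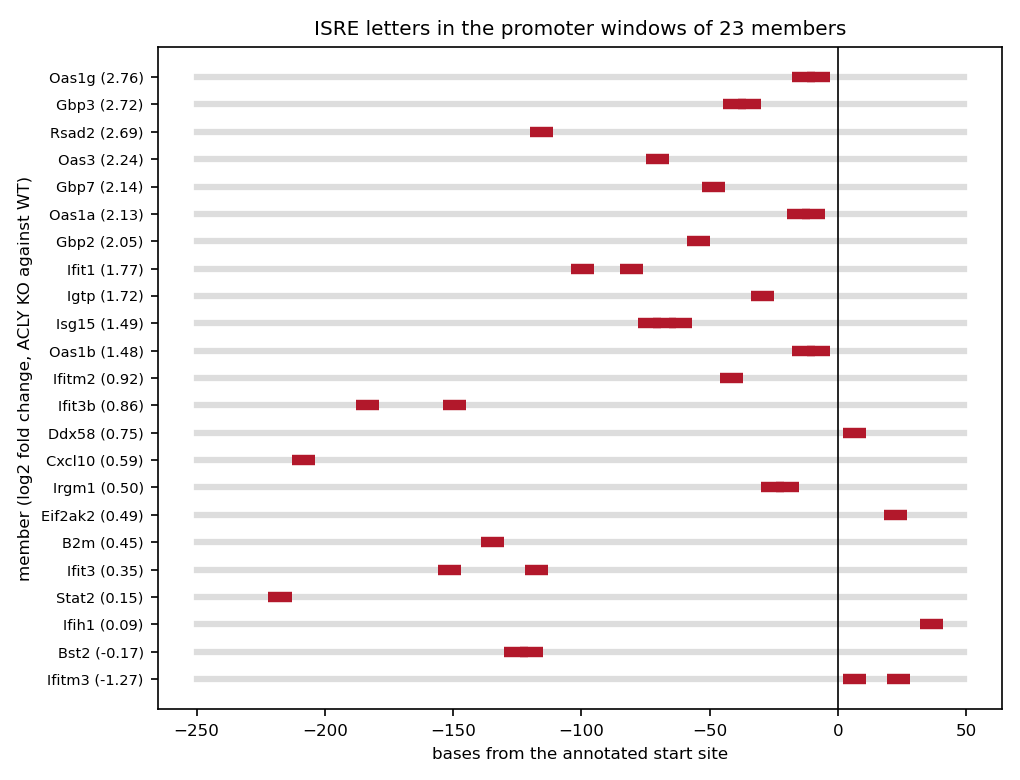
Positions of the ISRE letters (red) in the promoter windows (grey, from 250 bases before to 49 after the start site at 0) of the 23 members that held them, ordered by their log2 fold change in ACLY KO against WT, given in parentheses. Most matches lay before the start site, while those of Ddx58, Eif2ak2, Ifih1 and Ifitm3 lay after it.

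Across the group, antiviral effector and GTPase genes were mostly higher than in WT in both genotypes that lacked ACLY, and fewer of them rose in cells that lacked ACSS2 alone. Among the genes of peptide cutting and transport, Tap1, Psmb8 and Psmb9 had their highest mean in ACSS2 KO cells, and Tap2 and Psmb10 theirs in ACLY KO cells. A member was written as having risen or fallen at an adjusted p under 0.05 (limma over 12711 features with a mean of at least 10), and was counted as past the limits where its log2 fold change exceeded 1.5 in size at an adjusted p below 0.01. Of the 59 members, 51 reached the mean of 10 and were tested. The remaining 8 were Tmem173 (STING), Mb21d1 (cGAS), Zbp1, Ifitm1, Mx1, Mx2, Iigp1 and Nlrc5. Of those tested, 4 (Ifit1, Ifi44, Oas1g and Psmb9) had a WT mean under 10 and thus passed through other genotypes. Fold changes are on the log2(normalized count + 1) scale, which understates the change of low genes. In these bulk samples, fewer cells with a transcript and less transcript per cell cannot be told apart.

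Member counts here are over the 51 tested members, and shares over all features tested. In ACLY KO against WT, 38 of the 51 rose and 2 fell, where 23.8% of all features rose and 24.7% fell. Past the limits were 15 higher and 0 lower, against 4.62% and 4.18% of all features. The median log2 change was 0.84 over the tested members and -0.0067 over all features. In ACSS2 KO against WT, 17 members rose and 0 fell (15.1% and 11.0% of all features), and 1 was past the limits (1.65% higher, 0.771% lower), with a median of 0.39. In DKO1 against WT, 35 rose and 2 fell (27.9% and 28.1%), with 18 higher and 1 lower past the limits (5.31% and 4.53%) and a median of 0.77. These 3 comparisons share the WT libraries.

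The shares of members called were near those of all features between DKO1 and ACLY KO cells, and higher than those for rises over ACSS2 KO cells. In DKO1 against ACLY KO, 10 members rose and 9 fell (14.3% and 13.6% of all features), and 1 was past the limits, downward (1.05%, with 1.01% upward), with a median of 0.024. In DKO1 against ACSS2 KO, 24 rose and 6 fell (25.9% and 27.8%), with 16 higher and 3 lower past the limits (5.16% and 6.13%) and a median of 0.36.

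With no filter on low values all 59 members entered a fit over 19485 features. There 40 rose and 3 fell in ACLY KO (18.5% and 16.8% of all features), 19 rose and 1 fell in ACSS2 KO (9.79% and 6.7%), and 38 rose and 3 fell in DKO1 against WT (21.7% and 18.7%). In DKO1 against ACLY KO 7 rose and 9 fell (9.45% and 8.68%), and against ACSS2 KO 25 rose and 7 fell (19.7% and 19.1%).

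The roles did not move alike. Over all features, 23.8% rose and 24.7% fell in ACLY KO, 15.1% and 11.0% in ACSS2 KO, and 27.9% and 28.1% in DKO1 against WT. Of the 38 antiviral effectors and GTPases 34 were tested. Of these, 27 rose and 2 fell in ACLY KO (median 1.47), 10 rose where ACSS2 alone was lost (median 0.37), and 27 rose and 2 fell in DKO1 against WT (median 1.47). Past the limits upward were 14, 0 and 17 of them, against 4.62%, 1.65% and 5.31% of all features. Of the 10 MHC class I genes 9 were tested, of which 6 rose in ACLY KO, 5 rose in ACSS2 KO and 4 rose in DKO1. None fell in these comparisons with WT, and Psmb8 passed the limits, in ACSS2 KO. Of the 6 sensors 3 were tested, of which Ddx58 rose in ACLY KO, Ifih1 rose in ACSS2 KO and 0 rose in DKO1, by limma's adjusted p. At an unadjusted p under 0.05 the DKO1 count was 2 of 3 (Ddx58 and Ifih1).

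**Figure D2:**
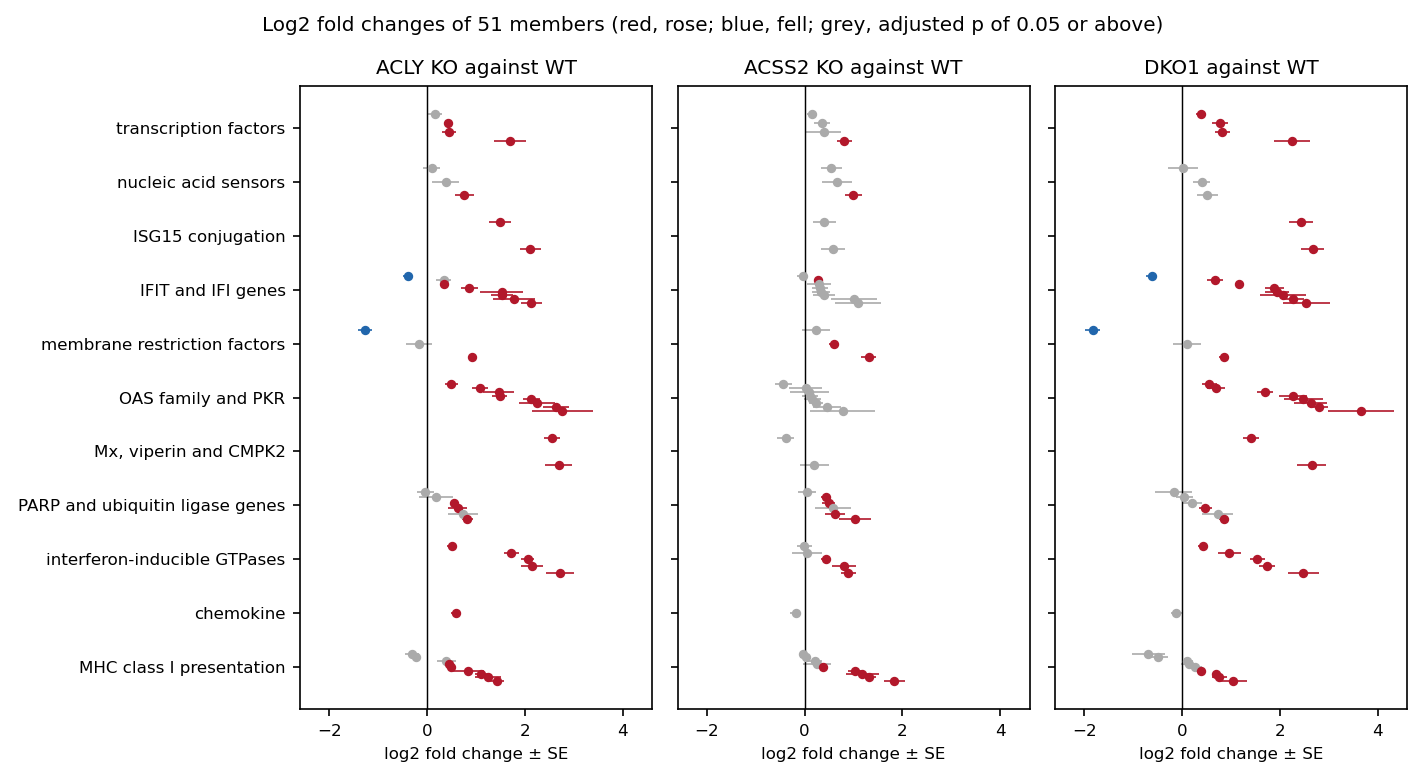
Log2 fold change with its standard error (limma) of the 51 tested members by role, for ACLY KO, ACSS2 KO and DKO1 against WT; red points rose and blue points fell at an adjusted p under 0.05. In ACLY KO and DKO1 the OAS family, ISG15 conjugation and GTPase genes lie to the right of 0, with medians of 1.80 for the OAS family and PKR in ACLY KO and 2.38 in DKO1, against 0.14 in ACSS2 KO.

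**Figure D3:**
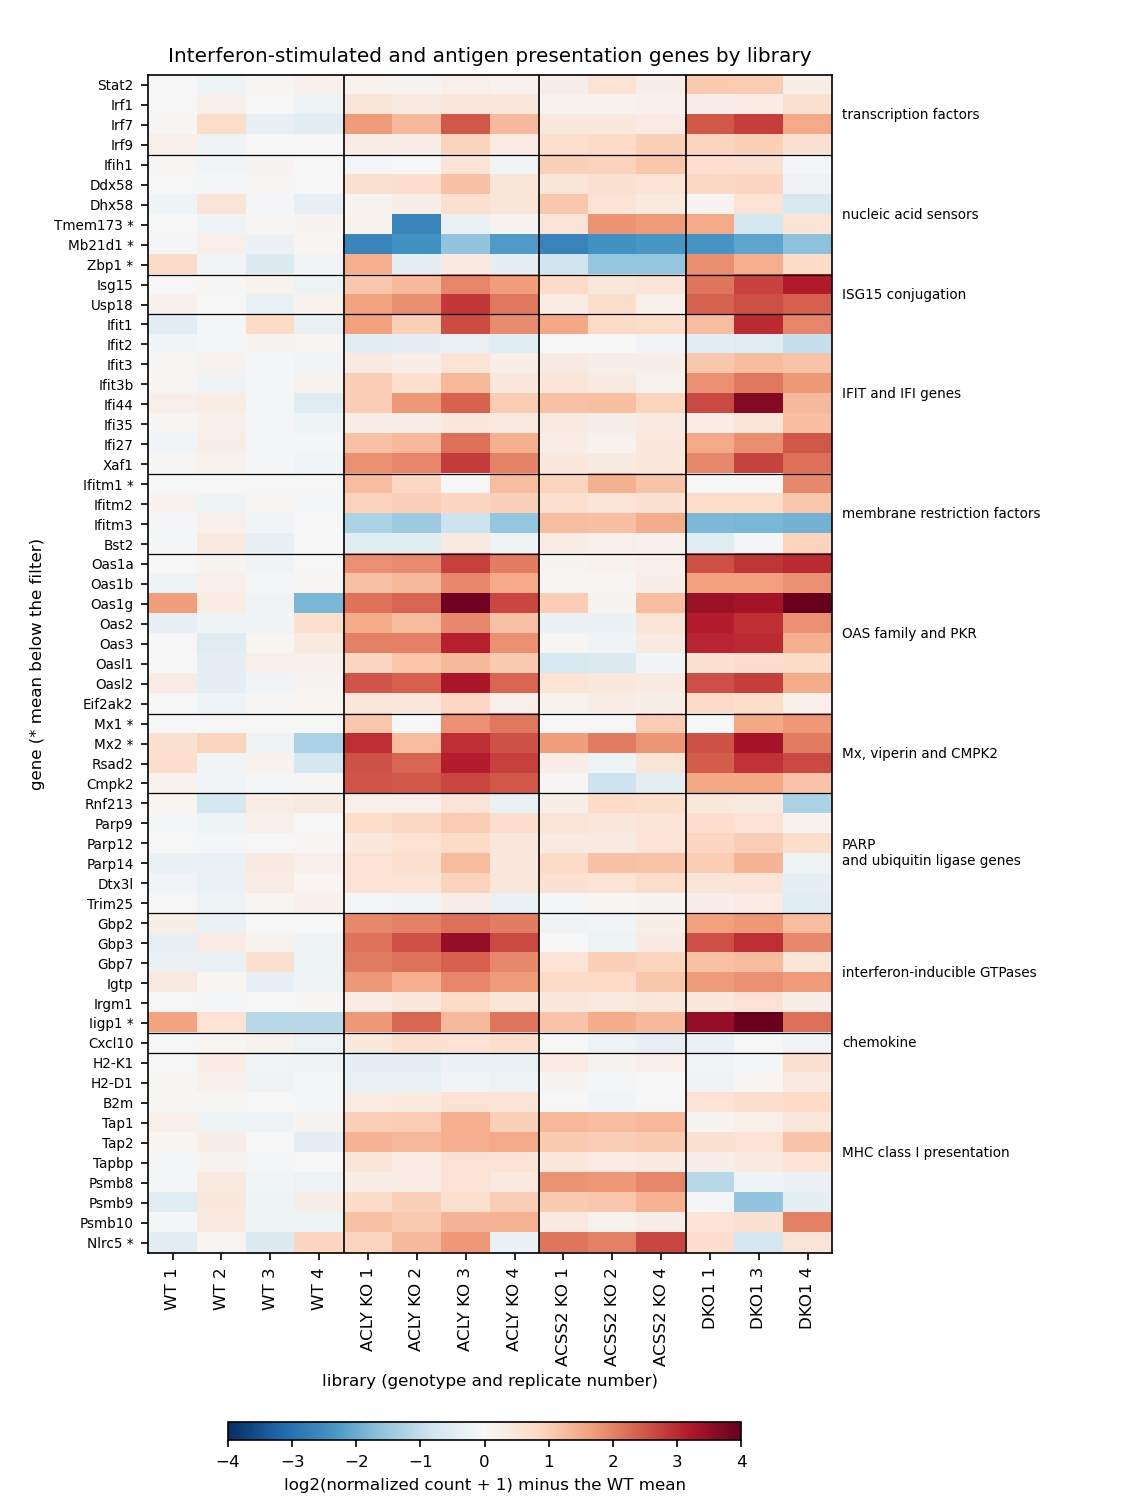
Log2(normalized count + 1) minus the WT mean for all 59 members (rows, by role) in the 14 libraries (columns); red is higher and blue lower than WT, and an asterisk marks the 8 members below the filter. ACLY KO replicate 3 is the highest of its group for 45 of the 51 tested members. The Psmb8 and Ifitm3 rows are red in ACSS2 KO. In DKO1 the Ifitm3 row is blue (log2 change -1.83 against WT), while Psmb8 is paler and was not called there (-0.50).

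Among the transcription factors, Irf7, the factor that amplifies interferon production, changed most. It was at 17.3, 28.1, 13.1 and 11.8 normalized counts in the WT libraries, 56.1, 42.4, 97.4 and 42.5 in ACLY KO, 22.8, 22.6 and 21.04 in ACSS2 KO and 96.9, 119 and 49.6 in DKO1. All ACLY-deficient libraries were above all others. Irf7 rose 3.23-fold (log2 change 1.69 ± 0.33 SE, adjusted p = 0.0009) in ACLY KO and 4.76-fold (log2 change 2.25 ± 0.36 SE, adjusted p = 0.00016) in DKO1, and its change in ACSS2 KO was 0.39 (adjusted p = 0.48).

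Irf9, a DNA-binding partner of STAT proteins, was at 268, 211, 232 and 232 in WT, 287, 281, 444 and 293 in ACLY KO, 377, 405 and 460.1 in ACSS2 KO and 439, 456 and 358 in DKO1. It rose in all 3 knockouts, 1.36-fold (log2 change 0.45 ± 0.14 SE, adjusted p = 0.021) in ACLY KO, 1.75-fold (log2 change 0.81 ± 0.16 SE, adjusted p = 0.0018) in ACSS2 KO and 1.77-fold (log2 change 0.82 ± 0.16 SE, adjusted p = 0.00061) in DKO1. The ACLY KO call was lost without replicate 3, the highest of its group (0.29, adjusted p = 0.05), and without WT replicate 2 (0.39, adjusted p = 0.057). The other ACLY KO libraries also lay above all WT libraries. Irf1, which drives many antigen presentation genes, was at 770.3, 868, 744 and 649 in WT, 1044, 962, 1030.2 and 1025 in ACLY KO, 834, 824 and 844 in ACSS2 KO and 912, 927 and 1142 in DKO1. It rose 1.35-fold (log2 change 0.43 ± 0.09 SE, adjusted p = 0.0015) in ACLY KO and 1.31-fold (log2 change 0.39 ± 0.10 SE, adjusted p = 0.0043) in DKO1, with all ACLY-deficient libraries above all WT libraries. The 87 tested neighbours of Irf1 within 5 Mb had median log2 changes of 0.29 in ACLY KO and 0.41 in DKO1. The DKO1 median was near the gene's own change. Stat2, whose changes in ACLY KO and ACSS2 KO were 0.15 (adjusted p = 0.45) and 0.36 (adjusted p = 0.14), rose in DKO1 against WT, 1.71-fold (log2 change 0.77 ± 0.17 SE, adjusted p = 0.0016), with 279 in DKO1 replicate 4 and 474 and 491 in the other DKO1 libraries.

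The nucleic acid sensors did not share a pattern. Ddx58 (RIG-I), which binds short RNA with a triphosphate end, was at 576, 549, 596 and 568 in WT, 887, 936, 1302 and 803 in ACLY KO, 801, 866 and 843 in ACSS2 KO and 1021, 1036 and 519.8 in DKO1. It rose 1.69-fold (log2 change 0.75 ± 0.20 SE, adjusted p = 0.0062) in ACLY KO. In DKO1, replicate 4 lay below every WT library and the other pair lay above them, and the change was 0.52 (adjusted p = 0.053).

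Ifih1 (MDA5), which binds long double-stranded RNA, was at 267, 239.6, 279 and 259 in WT, 252, 264, 371 and 239.8 in ACLY KO, 509, 497 and 558 in ACSS2 KO and 415, 400.2 and 246 in DKO1. It rose 1.99-fold (log2 change 0.99 ± 0.18 SE, adjusted p = 0.0011) in ACSS2 KO and fell to 0.662-fold (log2 change -0.59 ± 0.19 SE, adjusted p = 0.019) in DKO1 against ACSS2 KO, and in ACLY KO its change was 0.09 (adjusted p = 0.7). The DKO1 call was lost without DKO1 replicate 4 (-0.35, adjusted p = 0.058), without ACSS2 KO replicate 4 (adjusted p = 0.063) and with only the groups compared (adjusted p = 0.072). Dhx58 (LGP2), a regulator of both helicases, had overlapping libraries in every comparison with WT, from 9.18 to 32.8 normalized counts over all libraries, and passed no test.

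The DNA-sensing genes were low. Mb21d1 (cGAS) was at 18.8, 23.004, 16.9 and 20.9 in WT, 2.36, 2.85, 5.97 and 3.29 in ACLY KO, 2.23, 2.87 and 3.14 in ACSS2 KO and 3.08, 3.84 and 5.69 in DKO1. Every WT library was above every knockout library. In the fit with no filter Mb21d1 fell to 0.213-fold (log2 change -2.23 ± 0.27 SE, adjusted p = 1.8e-05) in ACLY KO, 0.179-fold (log2 change -2.48 ± 0.29 SE, adjusted p = 5e-05) in ACSS2 KO and 0.245-fold (log2 change -2.03 ± 0.29 SE, adjusted p = 7.6e-05) in DKO1. Tmem173 (STING) ranged from 0 to 20.9 and Zbp1, a sensor of left-handed nucleic acid, from 0 to 9.64. In the fit with no filter Zbp1 rose 2.57-fold (log2 change 1.36 ± 0.47 SE, adjusted p = 0.032) in DKO1 against WT, and Tmem173 passed no test.

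Isg15, a ubiquitin-like modifier, and Usp18, the protease that removes it and restrains interferon signalling, were high in the ACLY-deficient genotypes. Isg15 was at 60.8, 61.9, 65.4 and 51.8 in WT, 126, 147, 234 and 191 in ACLY KO, 101, 82.8 and 86.3 in ACSS2 KO and 266, 393 and 551 in DKO1. The DKO1 libraries did not overlap with those of any other genotype. Isg15 rose 2.81-fold (log2 change 1.49 ± 0.22 SE, adjusted p = 8.2e-05) in ACLY KO and 6.36-fold (log2 change 2.67 ± 0.24 SE, adjusted p = 8.3e-07) in DKO1, and was 2.27-fold (log2 change 1.18 ± 0.24 SE, adjusted p = 0.0025) in DKO1 over ACLY KO. Its 59 tested neighbours within 5 Mb had a median log2 change of 0.59 in DKO1 against WT and 0.17 in ACLY KO. Usp18 was at 34.6, 31.2, 24.6 and 33.9 in WT, 95.8, 115, 225 and 138 in ACLY KO, 38.7, 50.7 and 35.4 in ACSS2 KO and 162, 188 and 164 in DKO1, and rose 4.32-fold (log2 change 2.11 ± 0.22 SE, adjusted p = 4.7e-06) in ACLY KO and 5.39-fold (log2 change 2.43 ± 0.24 SE, adjusted p = 2.4e-06) in DKO1.

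**Figure D4:**
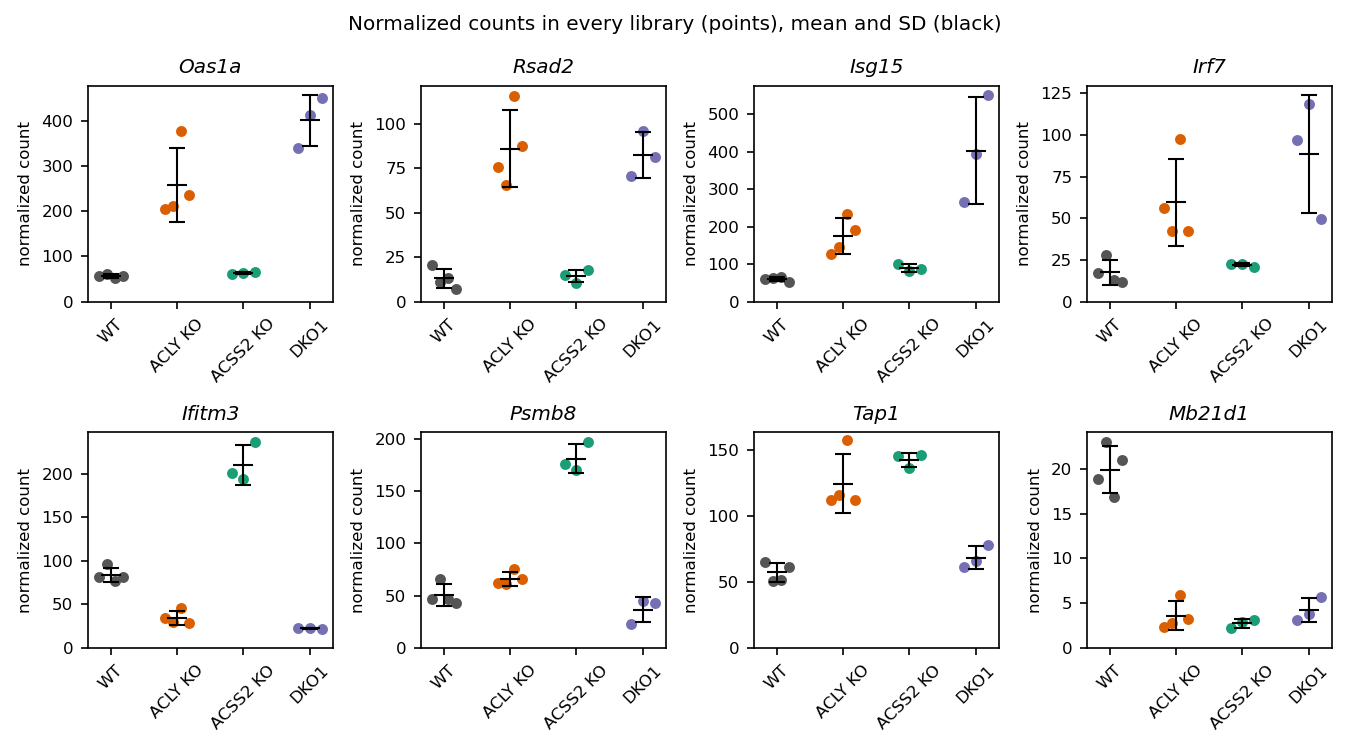
Normalized counts of 8 members in every library (coloured points), with the mean and SD of each genotype (black; n = 4 WT, 4 ACLY KO, 3 ACSS2 KO and 3 DKO1). Oas1a, Rsad2, Isg15 and Irf7 are high in ACLY KO and DKO1, Ifitm3, Psmb8 and Tap1 are highest or near highest in ACSS2 KO, and Mb21d1 is high in WT alone.

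The OAS enzymes make 2′-5′ oligoadenylate, a second messenger of the antiviral response, and PKR (Eif2ak2) halts translation on double-stranded RNA. All 8 genes of this family rose in both ACLY KO and DKO1 against WT (23.8% and 27.9% of all features). In ACSS2 KO 0 rose (15.1%), and Oasl1 was at -0.44 (adjusted p = 0.087). Oas1a was at 57.1, 61.3, 51.6 and 56.2 in WT, 205, 212, 379 and 236 in ACLY KO, 61.04, 62.97 and 65.6 in ACSS2 KO and 341, 413 and 451 in DKO1. It rose 4.38-fold (log2 change 2.13 ± 0.17 SE, adjusted p = 3e-07) in ACLY KO and 6.96-fold (log2 change 2.80 ± 0.18 SE, adjusted p = 5.1e-08) in DKO1, and the libraries of WT and ACSS2 KO overlapped.

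Oas1g was at 10.4, 3.39, 2.27 and 0 in WT, 14.97, 17.1, 51.9 and 21.7 in ACLY KO, 6.03, 2.90 and 7.38 in ACSS2 KO and 37.8, 35.1 and 65.1 in DKO1, and rose 6.77-fold (log2 change 2.76 ± 0.62 SE, adjusted p = 0.0023) and 12.6-fold (log2 change 3.66 ± 0.67 SE, adjusted p = 0.00046). Of the 75-base stretches of its transcripts, 44.61% also occur in other genes, mostly Oas1a, so reads of the pair may have been split between them. Oas2 was at 14.6, 16.2, 16.8 and 29.3 in WT, 53.3, 45.8, 72.95 and 42.9 in ACLY KO, 15.6, 15.7 and 27.1 in ACSS2 KO and 173, 146 and 67.5 in DKO1. It rose 6.19-fold (log2 change 2.63 ± 0.34 SE, adjusted p = 2.4e-05) in DKO1, with DKO1 replicate 4 lowest of its group, and 2.75-fold (log2 change 1.46 ± 0.31 SE, adjusted p = 0.0017) in ACLY KO.

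Oasl2, an OAS-like protein, was at 69.2, 42.6, 50.3 and 59.5 in WT, 318, 293, 535 and 279 in ACLY KO, 80.8, 74.02 and 70.7 in ACSS2 KO and 329, 373 and 155 in DKO1, and rose 6.19-fold (log2 change 2.63 ± 0.27 SE, adjusted p = 3.4e-06) and 4.82-fold (log2 change 2.27 ± 0.29 SE, adjusted p = 2.4e-05). Oas3 rose 4.72-fold (log2 change 2.24 ± 0.36 SE, adjusted p = 0.0002) and 5.58-fold (log2 change 2.48 ± 0.39 SE, adjusted p = 0.00015), and Oas1b and Oasl1 rose by log2 changes of 1.48 (adjusted p = 4.2e-06) and 1.07 (adjusted p = 0.00011) in ACLY KO. Eif2ak2 was at 1139.6, 999, 1167 and 1175 in WT, 1528, 1541, 2000.0 and 1287 in ACLY KO, 1239.9, 1371 and 1320.2 in ACSS2 KO and 1906, 1810.2 and 1293 in DKO1. Its rise was smaller than those of the Oas genes, 1.4-fold (log2 change 0.49 ± 0.14 SE, adjusted p = 0.0098) in ACLY KO and 1.47-fold (log2 change 0.56 ± 0.15 SE, adjusted p = 0.0062) in DKO1.

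Viperin (Rsad2) makes a chain-terminating nucleotide for viral polymerases, and Cmpk2, its neighbour on chromosome 12, makes the substrate. Rsad2 was at 20.3, 11.3, 13.4 and 7.03 in WT, 75.5, 65.3, 116 and 87.3 in ACLY KO, 14.8, 10.7 and 17.8 in ACSS2 KO and 70.4, 96.1 and 81.2 in DKO1. It rose 6.45-fold (log2 change 2.69 ± 0.28 SE, adjusted p = 3.5e-06) in ACLY KO and 6.28-fold (log2 change 2.65 ± 0.30 SE, adjusted p = 7.6e-06) in DKO1, while WT and ACSS2 KO overlapped. Cmpk2 was at 55.8, 47.1, 47.7 and 52.1 in WT, 295, 290.3, 331 and 289 in ACLY KO, 51.7, 28.2 and 38.6 in ACSS2 KO and 149, 149 and 113 in DKO1. The DKO1 libraries of Cmpk2 lay between WT and ACLY KO with no overlap on either side, at 2.66-fold (log2 change 1.41 ± 0.17 SE, adjusted p = 1.4e-05) over WT and 0.454-fold (log2 change -1.14 ± 0.17 SE, adjusted p = 0.00034) relative to ACLY KO. Mx1 and Mx2, dynamin-like GTPases that trap viral nucleocapsids, were at 0 to 3.30 and 0 to 23.1. In the fit with no filter Mx2 rose 5.39-fold (log2 change 2.43 ± 0.50 SE, adjusted p = 0.0016) in ACLY KO, 3.58-fold (log2 change 1.84 ± 0.54 SE, adjusted p = 0.031) in ACSS2 KO and 6.28-fold (log2 change 2.65 ± 0.54 SE, adjusted p = 0.0013) in DKO1.

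Of the 8 IFIT and IFI genes, 6 rose and 1 fell in ACLY KO (23.8% and 24.7% of all features). In ACSS2 KO 1 rose (15.1%), and in DKO1 against WT 7 rose and 1 fell (27.9% and 28.1%). Ifi27, a small mitochondrial protein, was at 592, 749, 606 and 596 in WT, 1419, 1548, 2945 and 1707 in ACLY KO, 778, 702 and 847 in ACSS2 KO and 1799, 2315 and 3546 in DKO1, and rose 2.89-fold (log2 change 1.53 ± 0.23 SE, adjusted p = 9.6e-05) and 3.86-fold (log2 change 1.95 ± 0.25 SE, adjusted p = 2e-05). Ifit2, whose product binds RNA and slows translation, was the member of this family that fell, from 2452, 2471, 2837 and 2798 in WT to 1978, 2053, 2136 and 1876 in ACLY KO and 1978, 1859.9 and 1359.8 in DKO1, with 2601, 2664 and 2432 in ACSS2 KO. No library of an ACLY-deficient genotype reached the lowest of WT. The falls were to 0.763-fold (log2 change -0.39 ± 0.10 SE, adjusted p = 0.0071) and 0.65-fold (log2 change -0.62 ± 0.11 SE, adjusted p = 0.00041). The first call was lost with libraries scaled to equal totals (log2 change -0.28, adjusted p = 0.097). The 44 tested genes within 5 Mb of Ifit2 on chromosome 19 had medians of -0.51 in ACLY KO and -0.76 in DKO1, near the gene's own values. Over 450 tested genes of that chromosome, members left out, the medians were -0.39 and -0.545. Ifit1, Ifit3 and Ifit3b, in the same region, rose in both comparisons.

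Ifit3 and Ifit3b, close relatives of Ifit2 on the same chromosome, rose in DKO1 against WT by log2 changes of 1.17 (adjusted p = 1.8e-07) and 1.89 (adjusted p = 2.1e-06), and against ACLY KO by 0.82 (adjusted p = 2.2e-05) and 1.03 (adjusted p = 0.0012). They share 41.11% and 35.67% of their 75-base stretches with other genes, mostly each other. Xaf1, a pro-apoptotic factor, rose 4.38-fold (log2 change 2.13 ± 0.21 SE, adjusted p = 2.1e-06) in ACLY KO and 4.82-fold (log2 change 2.27 ± 0.22 SE, adjusted p = 2.3e-06) in DKO1. Ifit1 and Ifi44 rose in ACLY KO by 1.77 (adjusted p = 0.0044) and 1.52 (adjusted p = 0.012), and in DKO1 by 2.06 (adjusted p = 0.0023) and 2.54 (adjusted p = 0.00057), from WT means under 10. Ifi35 rose in DKO1 by 0.67 (adjusted p = 0.0044), with 624 in replicate 4 and 332 and 379 in the other DKO1 libraries.

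The membrane restriction factors did not share a direction. Ifitm3, which blocks viral fusion in endosomes, was at 80.95, 95.9, 77.4 and 82.05 in WT, 34.2, 30.1, 46.3 and 28.2 in ACLY KO, 200.3, 193 and 236 in ACSS2 KO and 23.4, 23.1 and 22.003 in DKO1. The libraries of the 4 genotypes did not overlap. Ifitm3 fell to 0.415-fold (log2 change -1.27 ± 0.15 SE, adjusted p = 9.4e-06) in ACLY KO, rose 2.48-fold (log2 change 1.31 ± 0.16 SE, adjusted p = 5e-05) in ACSS2 KO and fell to 0.281-fold (log2 change -1.83 ± 0.16 SE, adjusted p = 6.6e-07) in DKO1. In DKO1 against ACSS2 KO it was at 0.113-fold (log2 change -3.14 ± 0.17 SE, adjusted p = 7.4e-09). Its relative Ifitm2 was at 1070.0, 863, 1029.8 and 921 in WT, 1827, 1865, 1761 and 1877 in ACLY KO, 1514, 1396 and 1461 in ACSS2 KO and 1601, 1627 and 2084 in DKO1, and rose 1.89-fold (log2 change 0.92 ± 0.09 SE, adjusted p = 2.2e-06), 1.51-fold (log2 change 0.59 ± 0.10 SE, adjusted p = 0.0006) and 1.82-fold (log2 change 0.86 ± 0.10 SE, adjusted p = 7.6e-06). The call in DKO1 was lost (adjusted p = 0.085) when a transcript length trend was removed from each library, and 42.0% of the 75-base stretches of Ifitm2 occur in other genes.

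Bst2 (tetherin), which holds budding virions at the cell surface, was at 493, 671, 411 and 501 in WT, 367, 383, 654 and 458 in ACLY KO, 628, 594 and 573 in ACSS2 KO and 366, 479 and 943 in DKO1. The groups overlapped and no comparison passed the test. Ifitm1 was at 0 in all WT libraries and at most 2.81 elsewhere.

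Interferon-inducible GTPases of the GBP and IRG families attack membranes around intracellular pathogens. All 5 that were tested rose in both ACLY KO and DKO1 against WT (23.8% and 27.9% of all features). Gbp2 was at 65.6, 45.997, 54.7 and 55.99 in WT, 214, 226, 256 and 230.4 in ACLY KO, 49.8, 51.2 and 64.7 in ACSS2 KO and 173, 185 and 132 in DKO1, and rose 4.14-fold (log2 change 2.05 ± 0.14 SE, adjusted p = 7.1e-08) and 2.91-fold (log2 change 1.54 ± 0.15 SE, adjusted p = 1.9e-06). Gbp3 was at 17.8, 28.8, 25.03 and 20.6 in WT, 106, 139.6, 272 and 146 in ACLY KO, 22.4, 19.6 and 29.4 in ACSS2 KO and 141, 182 and 88.3 in DKO1, and rose 6.59-fold (log2 change 2.72 ± 0.29 SE, adjusted p = 4.5e-06) and 5.58-fold (log2 change 2.48 ± 0.31 SE, adjusted p = 1.9e-05). In both genes WT and ACSS2 KO libraries overlapped. The 43 tested neighbours of Gbp2 within 5 Mb had medians of 0.26 in ACLY KO and 0.63 in DKO1 against WT, and of 1.03 in DKO1 against ACSS2 KO.

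Gbp7 rose 4.41-fold (log2 change 2.14 ± 0.22 SE, adjusted p = 3.8e-06) in ACLY KO and by log2 changes of 0.80 (adjusted p = 0.026) in ACSS2 KO and 0.97 (adjusted p = 0.0041) in DKO1, of which the ACSS2 KO call was lost in 6 other settings, 5 of them with a WT or ACSS2 KO library left out. Igtp rose by 1.72 (adjusted p = 8.4e-07), 0.90 (adjusted p = 0.0012) and 1.74 (adjusted p = 1.4e-06) in the same order. Irgm1 was at 1258, 1221, 1259.7 and 1292 in WT, 1553, 1691, 2142 and 1768 in ACLY KO, 1710.2, 1660.3 and 1718 in ACSS2 KO and 1691, 1859.6 and 1512 in DKO1. It rose in all 3 knockouts, 1.41-fold (log2 change 0.50 ± 0.09 SE, adjusted p = 0.00046), 1.35-fold (log2 change 0.43 ± 0.10 SE, adjusted p = 0.0052) and 1.34-fold (log2 change 0.42 ± 0.10 SE, adjusted p = 0.0026). The 67 tested neighbours of Irgm1 within 5 Mb had medians of 0.27, 0.12 and 0.40 in the same order, the last near the gene's own change in DKO1. Iigp1 was under the filter. In the fit with no filter it rose 3.66-fold (log2 change 1.87 ± 0.58 SE, adjusted p = 0.023) in ACLY KO and 9.99-fold (log2 change 3.32 ± 0.63 SE, adjusted p = 0.00079) in DKO1.

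PARP enzymes attach ADP-ribose to proteins. Of the 6 PARP and ubiquitin ligase genes 3 rose in ACLY KO (23.8% of all features) and 4 with loss of ACSS2 alone (15.1%). In DKO1 against WT 2 rose, a share near the 27.9% of all features. Parp9 and Parp12 rose in all 3, Parp9 by log2 changes of 0.82 (adjusted p = 6.6e-05), 0.49 (adjusted p = 0.012) and 0.48 (adjusted p = 0.0061), and Parp12 by 0.55 (adjusted p = 0.00018), 0.44 (adjusted p = 0.0042) and 0.85 (adjusted p = 7.8e-06). Dtx3l, the ligase that pairs with PARP9, overlaps Parp9 on the opposite strand, and its changes were 0.62 (adjusted p = 0.014), 0.62 (adjusted p = 0.037) and 0.21 (adjusted p = 0.39). Parp14 changed by 1.03 (adjusted p = 0.031) with loss of ACSS2 alone, while its values in ACLY KO and DKO1 were 0.73 (adjusted p = 0.058) and 0.72 (adjusted p = 0.071). Of the 4 calls in ACSS2 KO, that of Parp14 was lost in 5 other settings (without WT replicate 1 or 2 or ACSS2 KO replicate 2 or 4, and with quantile normalization; adjusted p = 0.072 to 0.1), that of Dtx3l in 8 (adjusted p = 0.05 to 0.13) and that of Parp9 with quantile normalization (adjusted p = 0.059).

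Rnf213, a very large ubiquitin ligase that coats bacteria, was at 3156, 1852, 3689.8 and 3836 in WT, 3504, 3444, 4339 and 2532 in ACLY KO, 3661, 5082 and 4961 in ACSS2 KO and 4063, 3828 and 1242 in DKO1. Its lowest libraries, WT replicate 2 and DKO1 replicate 4, were among the 4 that stood apart by transcript length, and it passed no test. Trim25, the ligase that activates RIG-I, was at 1192, 1032, 1254 and 1337 in WT, 1167, 1119, 1435 and 993 in ACLY KO, 1133, 1275 and 1305 in ACSS2 KO and 1453, 1517 and 863 in DKO1, with overlap throughout and no call. The part of transcript length in these values was not tested beyond the fits named in the closing section.

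Cxcl10, a chemokine that draws T cells, rose in ACLY KO cells, and its changes in ACSS2 KO and DKO1 against WT were -0.18 (adjusted p = 0.26) and -0.12 (adjusted p = 0.4). It was at 309, 325, 343 and 266 in WT, 413, 489.6, 461 and 505 in ACLY KO, 304, 267 and 247 in ACSS2 KO and 257, 313 and 288 in DKO1. The ACLY KO libraries were above all others, 1.5-fold (log2 change 0.59 ± 0.10 SE, adjusted p = 0.00034) over WT, and DKO1 was 0.614-fold (log2 change -0.70 ± 0.11 SE, adjusted p = 0.00048) relative to ACLY KO.

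Within MHC class I presentation, heavy chains, the light chain and the processing genes had different values across genotypes. H2-D1 was at 3619, 3957, 3141 and 3324 in WT, 2865, 2848, 3215 and 3022 in ACLY KO, 3753, 3418 and 3511 in ACSS2 KO and 3203, 3655 and 4588 in DKO1. Neither H2-D1 nor H2-K1 passed the test against WT in any knockout, and their changes in ACLY KO were -0.23 (adjusted p = 0.086) and -0.32 (adjusted p = 0.086). In DKO1 relative to ACLY KO their changes were 0.34 (adjusted p = 0.038) and 0.45 (adjusted p = 0.047), and these calls were lost in 11 and 15 of the other settings. Without DKO1 replicate 4 they were 0.20 (adjusted p = 0.12) and 0.22 (adjusted p = 0.14), and with the replicate block the adjusted p were 0.073 and 0.069. The light chain B2m was at 9255, 9373, 8941 and 8537 in WT, 11251, 11926, 13337 and 13027 in ACLY KO, 9120.3, 8429 and 9035 in ACSS2 KO and 13585, 14675 and 15800.0 in DKO1. B2m rose 1.37-fold (log2 change 0.45 ± 0.07 SE, adjusted p = 0.00012) in ACLY KO and 1.62-fold (log2 change 0.70 ± 0.08 SE, adjusted p = 4.9e-06) in DKO1 with no overlap with WT. The DKO1 call was lost when a transcript length trend was removed from each library (log2 change 0.26, adjusted p = 0.16).

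Psmb9, Tap1, Psmb8 and Tap2, which encode immunoproteasome subunits and the peptide transporter, lie side by side on chromosome 17. Tap1 was at 65.5, 50.9, 51.6 and 61.5 in WT, 112, 116, 158 and 112 in ACLY KO, 145, 136 and 146 in ACSS2 KO and 61.7, 66.03 and 78.2 in DKO1. It rose 2.14-fold (log2 change 1.10 ± 0.13 SE, adjusted p = 1.5e-05) in ACLY KO and 2.48-fold (log2 change 1.31 ± 0.14 SE, adjusted p = 2.3e-05) in ACSS2 KO, while in DKO1 its libraries overlapped with WT and the change was 0.26 (adjusted p = 0.15). Tap2 was at 194, 221, 184 and 139 in WT, 474, 462, 499.8 and 520.1 in ACLY KO, 373, 365 and 379.8 in ACSS2 KO and 275, 269 and 399.7 in DKO1. Tap2 rose 2.68-fold (log2 change 1.42 ± 0.14 SE, adjusted p = 2.8e-06), 2.04-fold (log2 change 1.03 ± 0.15 SE, adjusted p = 0.00028) and 1.7-fold (log2 change 0.76 ± 0.15 SE, adjusted p = 0.00097).

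Psmb8 was at 47.3, 65.9, 46.8 and 43.03 in WT, 62.1, 61.4, 75.4 and 65.7 in ACLY KO, 176, 171 and 197 in ACSS2 KO and 22.9, 44.6 and 42.7 in DKO1. The ACSS2 KO libraries were above all others, 3.56-fold (log2 change 1.83 ± 0.21 SE, adjusted p = 3.6e-05) over WT, and DKO1 was at 0.199-fold (log2 change -2.33 ± 0.23 SE, adjusted p = 1.9e-06) relative to ACSS2 KO. Psmb9 was at 5.28, 10.6, 6.81 and 9.35 in WT, 13.96, 16.02, 12.8 and 16.4 in ACLY KO, 17.2, 17.98 and 21.8 in ACSS2 KO and 7.24, 1.91 and 5.73 in DKO1. Its changes were 0.84 (adjusted p = 0.04) in ACLY KO and 1.18 (adjusted p = 0.02) in ACSS2 KO. The first call was lost in 11 other settings, including without any 1 of the 4 ACLY KO libraries (adjusted p = 0.054 to 0.089), and the other without WT replicate 1 (adjusted p = 0.055) or ACSS2 KO replicate 2 (adjusted p = 0.053) or 4 (adjusted p = 0.085). DKO1 was 0.346-fold (log2 change -1.53 ± 0.34 SE, adjusted p = 0.0046) relative to ACLY KO and 0.274-fold (log2 change -1.87 ± 0.36 SE, adjusted p = 0.00071) relative to ACSS2 KO. Annotated Psmb9 and Tap1 transcripts overlap on opposite strands, and whether the counting used strand is not given in the sources used here. The 147 tested genes within 5 Mb of Tap1 had a median log2 change against WT of -0.15 in ACLY KO, with 0.066 for ACSS2 KO and -0.078 for DKO1.

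Nlrc5, the transactivator of MHC class I genes, was under the filter at 1.33, 2.32, 1.12 and 4.69 in WT, 4.71, 6.59, 9.43 and 1.65 in ACLY KO, 12.7, 11.5 and 18.8 in ACSS2 KO and 4.09, 0.961 and 3.45 in DKO1. In the fit with no filter it rose 4.82-fold (log2 change 2.27 ± 0.50 SE, adjusted p = 0.0058) in ACSS2 KO and was at 0.237-fold (log2 change -2.08 ± 0.53 SE, adjusted p = 0.0067) in DKO1 relative to ACSS2 KO. The ACSS2 KO libraries were above all others. Tapbp (tapasin), which loads peptides, rose by 0.48 (adjusted p = 8.7e-05), 0.38 (adjusted p = 0.0027) and 0.39 (adjusted p = 0.00077) in the 3 knockouts. Psmb10 rose 2.36-fold (log2 change 1.24 ± 0.26 SE, adjusted p = 0.0014) in ACLY KO and 2.07-fold (log2 change 1.05 ± 0.28 SE, adjusted p = 0.0067) in DKO1, where replicate 4 was at 2334 and the other DKO1 libraries at 848 and 886. The DKO1 call was lost with only the groups compared (adjusted p = 0.051).

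Whether loss of ACSS2 had another effect in ACLY KO cells than in WT cells was tested as the difference of the contrasts, DKO1 against ACLY KO minus ACSS2 KO against WT. This difference was above 0 for 1 member (Ifit3) and below 0 for 14 of the 51 tested, where 12.0% of all features were above and 15.1% below. Of the 14, 5 were MHC class I genes and 8 were effectors or GTPases. The smallest adjusted p were those of Tap1, with a difference of -2.15 (adjusted p = 7.2e-06), Psmb8 with -2.72 (adjusted p = 2.6e-05), Ifitm3 with -1.87 (adjusted p = 5.2e-05) and Tap2 with -1.69 (adjusted p = 9.8e-05). Tap1 and Psmb8 were higher in ACSS2 KO than in WT and lower in DKO1 than in ACLY KO, so the contrasts had opposite signs. Genes that were high in both ACLY-deficient genotypes included ones with no call here, such as -0.24 (adjusted p = 0.71) for Rsad2 and -0.08 (adjusted p = 0.89) for Usp18. The difference for Oas1a was 0.51 (adjusted p = 0.16) with all libraries and 0.71 (adjusted p = 0.0073) without ACLY KO replicate 3.

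ACLY KO replicate 3 stood apart from the other ACLY KO libraries in these genes, and was looked at because this was already known. It was the highest of its 4 libraries for 45 of the 51 tested members (88.2%), against 25.8% of all tested features. For the antiviral effectors and GTPases this was 33 of 34, with a median of 0.59 log2 units above the mean of the other libraries, and for MHC class I genes 6 of 9, with a median of 0.14. The median over all features was 0.0088. In MHC class I genes other libraries stood apart as well. WT replicate 2 was highest of its group for 8 of 9 (40.5% of all features) and DKO1 replicate 4 for 7 of 9 (46.1%). Their medians were 0.375 and 0.423. ACSS2 KO replicate 2 was lowest for 8 of 9 (35.6% of all features), with a median of -0.101. The gaps of ACLY KO replicate 3 included that of Oas3, at 221 against 91.0 to 104, and Gbp3, at 272 against 106 to 146.

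Without this library 36 of the 51 tested members rose and 2 fell in ACLY KO against WT, the same genes as with it apart from Irf9 and Psmb9, whose calls were lost. There were 12 past the limits and the median was 0.75, and 27 of the 34 tested effectors and GTPases rose (median 1.27). Oas1a was then at 1.93 (adjusted p = 7.6e-08), Usp18 at 1.86 (adjusted p = 3.4e-06), Gbp3 at 2.46 (adjusted p = 8.7e-06) and Isg15 at 1.34 (adjusted p = 0.00032) on the log2 scale. The libraries that were lower than replicate 3 still lay above every WT library for these 4 genes. Library totals in ACLY KO were 23912713 to 24006385, and replicate 3, at 23989116, was inside that range. Its Ptprc level of 10.3 and Cd68 level of 88.0 compared with 4.85 to 15.9 and 54.3 to 65.0 in the other ACLY KO libraries. Its Csf1r level of 1148.6 and Cd14 level of 170 lay within the ranges of those libraries (1078.1 to 1181.5 and 167 to 197). The part of these or of any other difference between the libraries in the values of replicate 3 was not tested.

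**Figure D5:**
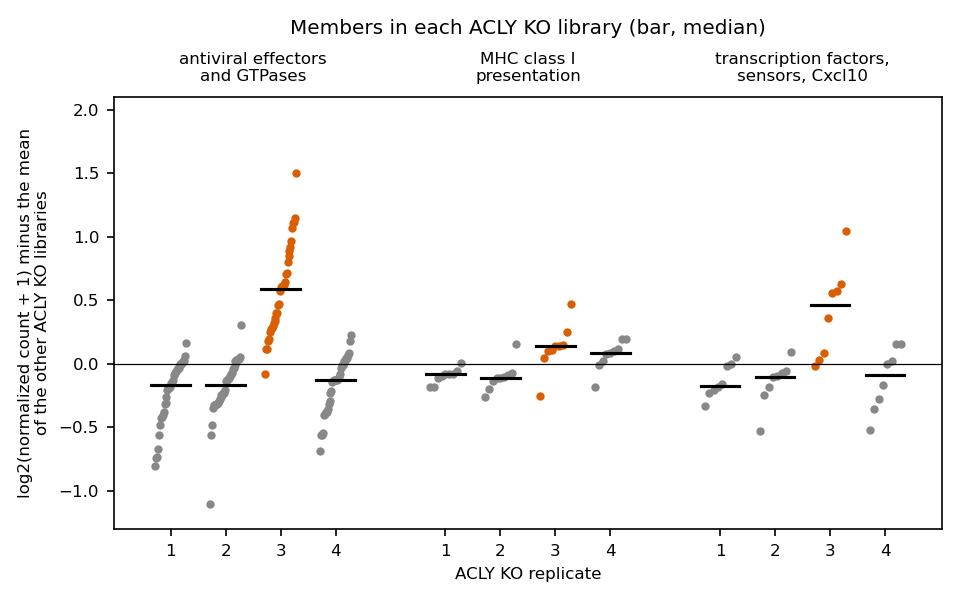
Log2(normalized count + 1) of each tested member in each ACLY KO library minus the mean of the other ACLY KO libraries, for 34 effectors and GTPases, 9 MHC class I genes and 8 other members; bars are medians and replicate 3 is in orange. The effector points of replicate 3 are nearly all above 0 (median 0.59), while its MHC class I points are closer to 0 (median 0.14).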

How the data were processed

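RNA was measured by poly(A)-selected, strand-marking RNA sequencing with single-end reads of 75 bases in 14 libraries of 4 genotypes, which the labels name. Per the paper's methods, the authors aligned reads with STAR to the mouse genome (GRCm38/mm10) and normalized counts with DESeq2 (version 1.0.1). The deposited table holds this normalized signal, gene counts divided per library by a size factor and no longer whole reads, so no count test was used. It has 24972 rows, 26 of which carry date-like names.

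Values were compared as log2(value + 1) with limma (version 3.58.1, R 4.3.3), intensity trend, 1 coefficient per genotype, on 12711 features with a mean of at least 10 over 14 libraries, with Benjamini-Hochberg adjustment over all of them. The fit was tested on simulated data. Depth before normalization was not analysed here, so no counting interval is given. Members and lists were chosen with earlier results of these data known. Per-library values are given for the 2 members of each role with the highest mean, for the 4 largest rises and falls past the limits in each comparison and for the 4 smallest adjusted p of the interaction, and other members were named freely. Of the pathway genes outside the members, the 3 with the largest change past the limits in each comparison were named, apart from 1 that is not reported here. Promoter windows came from RefSeq (GRCm38.p6), and gene spans and shared 75-base stretches from GENCODE M21.

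Alternatives were the added constant (0.5 and 5), filters, call limits, libraries in the fit, a replicate block, each library left out, scaling, a length correction with a 5-df spline, and no intensity trend. Leaving out WT replicate 2 and DKO1 replicate 4 together was chosen after seeing the data. Columns not mapped to a sample numbered 0.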

Additional observations from a re-analysis of the deposited data

Results flagged for a closer look

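In 103 groups of 4 libraries, WT or ACLY KO for each member reaching 10, the gap of the highest or lowest library to the next was set against the group's range, and 10 groups passed Dixon's 95% value, where chance flags about 1 in 20 groups. In ACLY KO replicate 3, Irf9 was at 443.7 normalized counts against 281.3 to 293.3 in the other ACLY KO libraries, Xaf1 at 276.1 against 139.3 to 155.3 and Oas3 at 221.3 against 91.03 to 103.8. In the same library Oasl2 was at 535.1 against 278.5 to 317.8, Cmpk2 at 330.9 against 288.6 to 295.3 and Tap1 at 158.0 against 111.9 to 116.4. All 6 flags in the ACLY KO group fell on this library and all were upward. The library was already known to stand apart in these genes, and members measured in the same libraries are not independent groups. The flags thus describe this library and are no separate test of it. In WT replicate 2, Ifi27 was at 749.0 against 592.5 to 606.0 in the other WT libraries and Psmb10 at 770.9 against 516.2 to 556.0. Oas2 was at 29.26 in WT replicate 4 against 14.65 to 16.81, and Gbp7 at 50.36 in WT replicate 3 against 26.47 to 28.35.

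The effect of ACSS2 loss differed between ACLY KO and WT cells for Tap1 by a log2 difference of -2.15 (adjusted p = 7.2e-06), for Psmb8 by -2.72 (adjusted p = 2.6e-05), for Ifitm3 by -1.87 (adjusted p = 5.2e-05) and for Tap2 by -1.69 (adjusted p = 9.8e-05), by limma's test of the difference itself. These 4 are the smallest adjusted p among the members, and each kept its direction and its call in all alternatives run. Each effect rests on 1 clone, so loss of ACSS2 and clone cannot be told apart.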

How the results depend on the processing

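Beside the reported setting 27 others were run, and a call was counted as held if it stood in each setting that tested the member. With a mean of at least 50, 44 of the 51 members were tested, and with at least 10 in every library 45. Held were 37 of the 40 member calls in ACLY KO against WT, 11 of 17 in ACSS2 KO and 34 of 37 in DKO1 against WT. The counts were 10 of 19 in DKO1 against ACLY KO, 25 of 30 in DKO1 against ACSS2 KO, and 12 of 15 in the interaction. With adjusted p under 0.05 and no fold limit the counts past the limits became 38 higher and 2 lower (ACLY KO) and 17 higher (ACSS2 KO). They were 35 higher and 2 lower (DKO1 against WT), 10 higher and 9 lower (DKO1 against ACLY KO) and 24 higher and 6 lower (DKO1 against ACSS2 KO). In the 2 lists that follow, counts close to those of the reported setting are left out. With the log2 limit at 1 and the adjusted p limit relaxed to 0.05 together, the counts became 23 and 1 (ACLY KO), 6 higher (ACSS2 KO), and 3 and 3 (DKO1 against ACLY KO). With no filter, 1 was lower in ACLY KO, 2 higher and 1 lower in ACSS2 KO, 2 lower in DKO1 against WT, and 3 above 0 in the interaction.

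The 1 lower member of DKO1 against ACLY KO (Psmb9) became 0 with 5 added, with a mean of at least 50 or at least 10 in every library, where Psmb9 was no longer tested, or with only the groups compared, and it was 0 to 1 over the libraries left out. The higher count there was 0 to 2 over the libraries left out, with 2 without DKO1 replicate 4 and 2 without both WT replicate 2 and DKO1 replicate 4. The interaction count above 0 was 1 to 4 over the libraries left out (3 without ACLY KO replicate 3, 4 without DKO1 replicate 1 or 4), 3 with quantile normalization, 2 with the length correction and 4 without both libraries. With the length correction B2m in DKO1 against ACLY KO turned to -0.0949 (adjusted p = 0.67) and Ifitm2 in DKO1 against ACSS2 KO to -0.288 (adjusted p = 0.2), and without both libraries the Ifi35 interaction turned to -0.313 (adjusted p = 0.048); the cause was not tested. The replicate block gave 0 lower members in DKO1 against ACLY KO. The labels name no shared batch, and of 18 same-numbered pairs 5 correlated above 0.1 (r = -0.431 to 0.447, median 0.008). The correlated deviations also held the transcript length trends, with r = 0.619 for WT replicate 2 and DKO1 replicate 4. A weaker pairing by replicate number could thus not be seen this way. Depth before normalization is unknown here, which limits what can be said of the 8 members below the filter.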

Other observations

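Genes of the same pathway outside the 59 members were taken from lists of 113 genes, of which 85 were tested. Of 10 interferon genes none reached the filter, and Ifnb1 was listed at 0 in 11 of 14 libraries and at no more than 1.17 in the rest. Of 9 interferon receptor and kinase genes, 0 rose and 0 fell in ACLY KO by limma's test (23.8% and 24.7% of all features). Of 40 other interferon-stimulated genes 31 were tested, of which 23 rose and 3 fell in ACLY KO, where 23.8% of all features rose and 24.7% fell. In ACSS2 KO 10 rose and 0 fell (15.1% and 11.0% of all features), and in DKO1 against WT 22 rose and 2 fell (27.9% and 28.1%). Trim30a, a ubiquitin ligase gene, was at 46.5, 32.3, 36.9 and 29.4 in WT and 237, 278, 409 and 259 in ACLY KO, 7.89-fold (log2 change 2.98 ± 0.20 SE, adjusted p = 8.5e-08). Gbp4 rose 7.26-fold (log2 change 2.86 ± 0.18 SE, adjusted p = 3.7e-08) and Gbp10 10.9-fold (log2 change 3.45 ± 0.41 SE, adjusted p = 1.4e-05) in ACLY KO, and Gbp8 was at 1358, 1354 and 1414 in DKO1 against 209, 186, 136 and 159 in WT, a log2 change of 3.00 (adjusted p = 9.9e-10). Sp100, a nuclear body gene, rose 10.5-fold (log2 change 3.39 ± 0.35 SE, adjusted p = 3.2e-06) in DKO1.

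Trim14, a TRIM family gene, rose 2.85-fold (log2 change 1.51 ± 0.31 SE, adjusted p = 0.003) in ACSS2 KO and fell to 0.275-fold (log2 change -1.86 ± 0.29 SE, adjusted p = 0.00014) in ACLY KO. Of 25 other antigen presentation genes 17 were tested, of which 7 rose and 3 fell in ACLY KO (23.8% and 24.7% of all features), 2 rose in ACSS2 KO (15.1%) and 8 rose and 3 fell in DKO1 (27.9% and 28.1%). H2-DMb1, a MHC class II peptide editor, was at 58.2, 64.1, 42.8 and 37.6 in WT, 328, 383, 345 and 402 in ACLY KO, 50.7, 45.3 and 47.8 in ACSS2 KO and 267, 306 and 442 in DKO1, 6.54-fold (log2 change 2.71 ± 0.19 SE, adjusted p = 1.2e-07) in DKO1 over WT. Of 15 tested signalling adaptor and kinase genes 4 rose and 2 fell in ACLY KO, and of 13 negative regulators 3 rose and 2 fell, shares near or below those of all features. Among the regulators the phosphatase gene Ptpn6 was at 525, 507, 523 and 540.0 in ACLY KO and 124, 114 and 133 in DKO1, 0.238-fold (log2 change -2.07 ± 0.13 SE, adjusted p = 2.5e-07) in DKO1 relative to ACLY KO.

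Markers of other cell types moved with genotype as well. The summed endothelial markers were at 77.9 to 92.3 in ACLY KO and 42.1 to 53.4 in DKO1, against 18.6 to 28.3 in WT and 10.5 to 18.3 in ACSS2 KO. The summed fibroblast and stellate markers were at 5308 to 6242 in ACSS2 KO, 3603 to 3955 in ACLY KO, 2191 to 2503 in WT and 2132 to 2243 in DKO1. Few genes carried these sums, and they did not move together. In WT, ACLY KO, ACSS2 KO and DKO1, mean Acta2 was 1657, 630, 4454 and 774 and mean Col1a1 428, 2454, 523 and 477. Mean Col3a1 was 80.6, 400.5, 68.4 and 587.5. Between WT and ACLY KO, mean Pecam1 went from 7.51 to 61.65 and mean Kdr from 12.93 to 2.21. The part of these differences in the values of the interferon-stimulated genes was not tested.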
